A study of Arabidopsis thaliana with 10 samples.

Results

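The genes described here are 10 Arabidopsis thaliana genes whose products hold back, relay or sense the jasmonate signal. They are the corepressor TPL (TOPLESS) with its relatives TPR1, TPR2, TPR3 and TPR4, the adaptor NINJA, the corepressors LUG and LUH, the Mediator subunit MED25 and the receptor subunit COI1. They were taken by gene identifier, all 10 were found among the 32833 genes listed for each library, and all 10 passed the filter on low counts. Transcripts were sequenced from entire Col-0 seedlings, 10 days old and grown under long days. The Set1_2hJA and Set2_2hJA libraries came from seedlings exposed for 2 h to gaseous methyl jasmonate (JA), and the Set1_ctrl and Set2_ctrl libraries from untreated ones. Set1 held 2 JA and 2 ctrl libraries, Set2 held 3 JA and 3 ctrl libraries, and the study calls them biological replicates of separate experiments. All groups were wild type, so the members were measured at their normal gene dose and no library tests what the loss of a member does.

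Without hormone, JAZ proteins sit on MYC transcription factors and recruit TPL or a TPR protein, in most cases through NINJA, which carries the repression motif that JAZ proteins often lack. When the active hormone is present, COI1, the F-box protein of a ubiquitin ligase, binds JAZ proteins and marks them for breakdown. MYC2 is then free to work through MED25, which links it to RNA polymerase II and to histone acetyltransferase. LUG and LUH are corepressors of the Groucho type that work with adaptors of the SEUSS family, and LUH has also been described as a partner of MED25 in jasmonate responses. In this role the study places LUH on the activating side, beside MED25 and the histone acetyltransferase HAC1.

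After 2 h of JA, NINJA was higher than in untreated seedlings in both experiments, by 1.58-fold over all 10 libraries, and TPL was lower, at 0.689 times its ctrl level. Thus 1 of 10 members was called higher, against 6.93% of the 20213 genes tested, and 1 of 10 lower, against 6.67%. The other 8 genes did not pass the test in the main analysis. None of the 10 was called at 2-fold. The plot of levels by library shows all members.

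**Figure D1:**
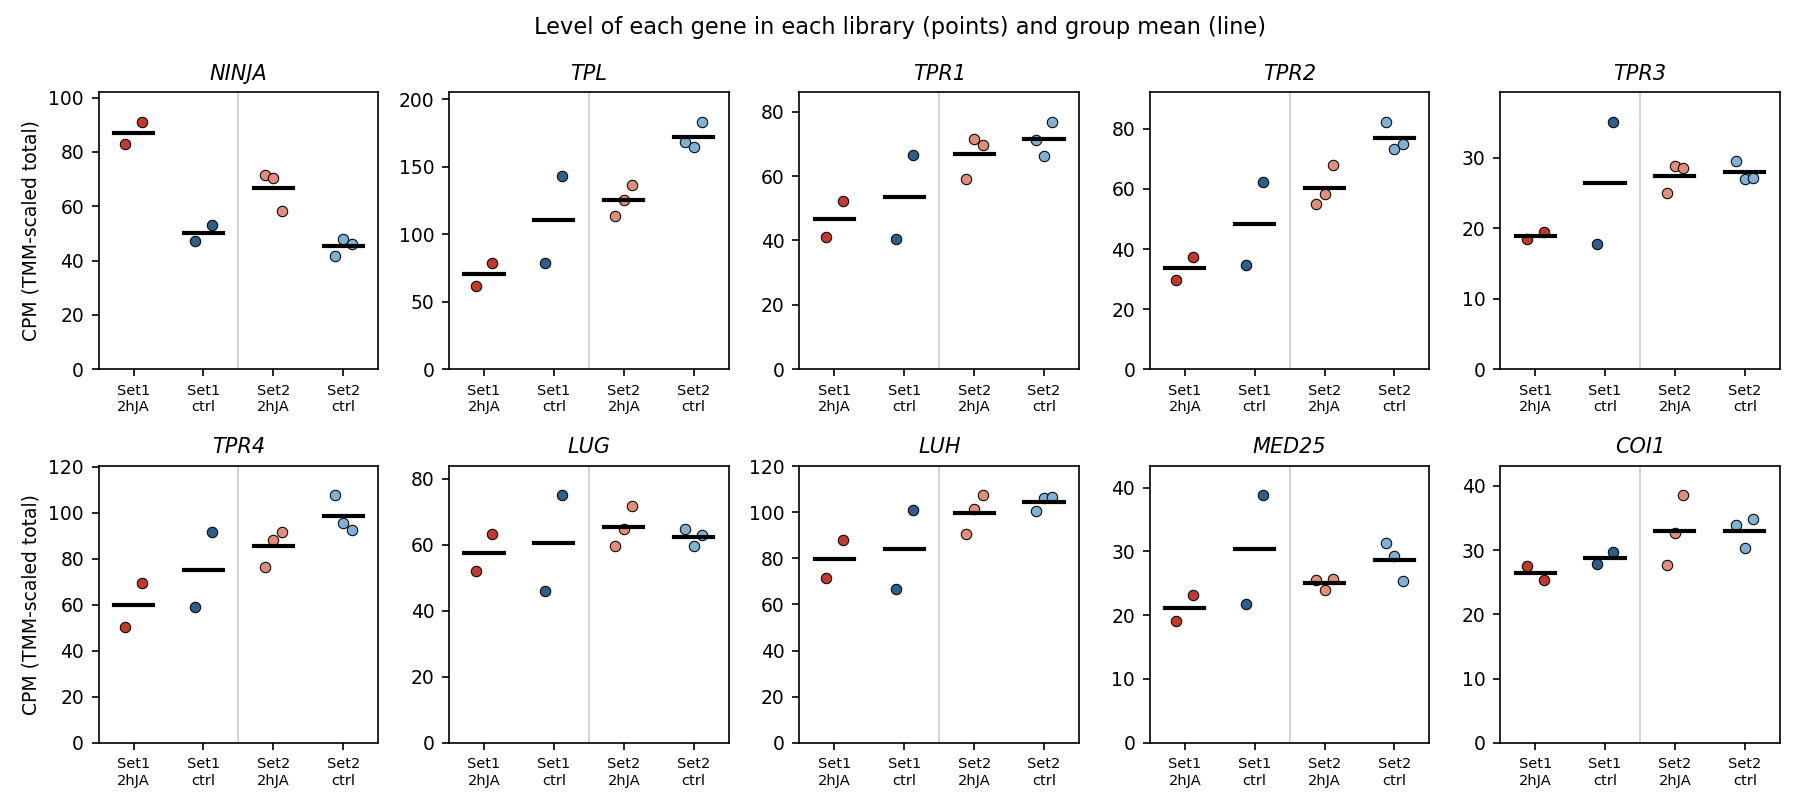
Level of each of the 10 genes in CPM (counts relative to the TMM-scaled library total), with a panel per gene, JA left of ctrl within each set, points for libraries and lines for group means. NINJA points of JA lie above those of ctrl in both sets, at 82.9 and 91.1 against 47.2 and 53.1 CPM in Set1, and TPL points of JA lie below those of ctrl in Set2.

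The Set1 libraries held 12147941 to 17200426 expected counts and the Set2 libraries 6333822 to 7774547, so Set1 was the deeper experiment. The replicate 1 libraries of Set1 stood apart, with plastid genes at 11.4% (JA) and 13.8% (ctrl) of the counts, against 0.683% (JA) and 1.87% (ctrl) in the replicate 2 libraries. Their rRNA genes, which can include those of the plastid, held 8.98% (JA) and 11.6% (ctrl), against 0.653% and 1.32% in replicate 2. Their TMM factors were 0.778 (JA) and 0.707 (ctrl), against 0.973 and 0.926 in replicate 2. For plastid genes Set2_2hJA replicate 1 had 2.61%, against at most 0.377% in the other Set2 libraries. It also had 28949 genes with at least 1 count, against 23236 to 25609 in the other Set2 libraries. Between the replicates of Set1_ctrl all 10 members were lower in replicate 1, at 0.504 to 0.937 times the CPM of replicate 2, and in Set1_2hJA 9 of 10 were lower. The labelled tissue was checked with leaf, root, seed storage and flower markers. The 4 leaf markers each reached at least 898 CPM in every library. Of the 4 root markers SHR lay between 12.8 and 19.4 CPM, and EXPA7, COBL9 and NRT2.1 lay between 0.534 and 8.34 CPM. The seed storage gene CRA1 reached 10.5 CPM in Set1_2hJA replicate 1, above those 3 root genes there, SESA3 reached at most 0.860 CPM, and the flower genes AP3 and PI at most 2.26 CPM. The leaf markers were thus high, and the root markers low. The 4 leaf markers summed to between 36992 and 38165 CPM in Set1_2hJA, against 52020 to 52616 CPM in Set1_ctrl, and to between 19885 and 27615 CPM in Set2_2hJA, against 25910 to 30555 CPM in Set2_ctrl. The 4 root markers summed to between 21.0 and 30.1 CPM in Set1_2hJA, against 29.1 to 32.98 CPM in Set1_ctrl, and to between 31.4 and 35.0 CPM in Set2_2hJA, against 24.6 to 29.7 CPM in Set2_ctrl, so they were higher without overlap after JA in Set2 and overlapped in Set1. The part of these differences in the results below was not tested. In whole seedlings, fewer cells of a type and less RNA per cell cannot be told apart.

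The corepressors of the TPL family are close relatives, which bears on how far their reads can be told apart. TPL and TPR1 shared 86.8% of their aligned coding bases, and the other pairs of the family shared 66.5% to 70.8%. The longest stretch identical between the coding sequences of TPL and TPR1 was 56 bases, coding bases 79 to 134, near the start of both proteins and interrupted by an intron. It is printed below from TAIR10.1 in lower case, beside the aligned bases of TPR2 and TPR3, in which capitals mark a difference from TPL. In TPR4 the alignment with TPL was broken by a gap there.

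TPL, chr1:5420126-5420281, minus strand: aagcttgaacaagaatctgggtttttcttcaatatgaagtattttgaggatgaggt
TPR1, chr1:30266241-30266368, minus strand: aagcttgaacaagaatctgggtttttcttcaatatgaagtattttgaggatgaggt
TPR2, chr3:5731787-5731927, plus strand: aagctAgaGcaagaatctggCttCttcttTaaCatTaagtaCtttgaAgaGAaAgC
TPR3, chr5:9515044-9515185, minus strand: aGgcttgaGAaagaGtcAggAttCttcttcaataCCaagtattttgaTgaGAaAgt

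TPR2 and TPR3 each differed from TPL at 13 of the 56 bases. Of the 4407 stretches of 50 bases in the TPL transcripts, 7 also occurred in TPR1 and 54 in AT1G15740, a gene that overlaps TPL on the opposite strand. TPR3 shared 5.56% of its stretches with 2 genes on the opposite strand, and TPR4 shared 4.34% with 1. Expected counts of TPL were not whole in 6 of 10 libraries, those of TPR1, TPR3 and TPR4 each in 1 of 10, and those of the other 6 members in none. The values of TPL, TPR3 and TPR4 are less certain for that reason, since the sources used here do not say whether the counting used the strand. COI1 also overlaps a gene on the opposite strand, AT2G39930, but shared no stretch of 50 transcript bases with it.

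NINJA (AT4G28910, chromosome 4, 14264034 to 14266786, minus strand in TAIR10.1, 4 exons) encodes the adaptor between JAZ proteins and TPL. In Set1 it had 82.9 and 91.1 CPM in JA libraries, against 47.2 and 53.1 CPM in ctrl libraries. In Set2 it had 71.4, 70.5 and 58.3 CPM in JA libraries, against 41.8, 47.8 and 45.9 CPM in ctrl libraries. Every JA library was thus above every ctrl library of its own set, and each JA library was above the ctrl library of the same replicate number, by 0.34 to 0.81 on the log2 scale. For the Set1_ctrl libraries the deposited files are named with the opposite numbers, and the numbers of the sample titles were used for the pairs. NINJA was the only member whose CPM ranges were apart in the same direction in both sets, a pattern held upward by 7.25% of the 19002 genes tested in both.

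The log2 fold change of NINJA, JA minus ctrl, was 0.77 in Set1 (SE 0.17, edgeR quasi-likelihood test, adjusted p = 0.0438) and 0.56 in Set2 (SE 0.12, edgeR adjusted p = 0.0298). In a combined fit of all libraries with the set as a covariate it was 0.66 (SE 0.10, 95% confidence interval 0.45 to 0.87, edgeR adjusted p = 6.9e-04). Calls throughout rest on a p adjusted by Benjamini-Hochberg over all genes tested, with 0.05 as the limit and no threshold on the fold. The combined call was kept under all 6 other settings and without any single library, while the call in Set1 was lost without each of its 4 libraries in turn (edgeR adjusted p from 0.0576 to 0.281), on library totals (0.268) and with limma on log2(TPM + 1) (0.417). The call in Set2 was lost without any library other than Set2_2hJA replicate 3, with the highest edgeR adjusted p at 0.104, and also without the filter on low counts (0.0544) and with limma (0.0639). The change of NINJA did not differ detectably between the experiments (Set2 minus Set1 -0.23, 95% confidence interval -0.65 to 0.19, edgeR adjusted p = 0.881).

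The 300 bases before the annotated start of NINJA are shown because it was the only member that rose. MYC2 is known to bind the G-box CACGTG and the related hexamers CACGTT and CACATG. A search of both strands found none of these letters in this window, which lies at chr4:14266787-14267086 on the minus strand of TAIR10.1 and overlaps no other gene. The window of LUG, at chr4:15707125-15707424 on the plus strand, is shown beside it as 1 of 2 members with a match, and capitals mark the hexamer.

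NINJA: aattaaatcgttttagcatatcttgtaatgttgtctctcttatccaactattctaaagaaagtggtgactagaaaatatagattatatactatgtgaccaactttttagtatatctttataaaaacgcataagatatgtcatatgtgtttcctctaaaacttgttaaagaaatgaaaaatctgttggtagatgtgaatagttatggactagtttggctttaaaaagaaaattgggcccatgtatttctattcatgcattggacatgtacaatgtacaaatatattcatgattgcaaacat
LUG: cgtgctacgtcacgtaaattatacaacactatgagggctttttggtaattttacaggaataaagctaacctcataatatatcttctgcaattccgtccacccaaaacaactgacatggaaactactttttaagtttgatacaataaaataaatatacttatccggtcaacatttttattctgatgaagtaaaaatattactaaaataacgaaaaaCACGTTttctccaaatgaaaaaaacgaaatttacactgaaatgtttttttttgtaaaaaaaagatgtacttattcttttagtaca

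Over the 10 members, CACGTG was found in 0 windows, CACGTT or its reverse complement in 2 (LUG and TPR1) and CACATG in 0. Of 27443 windows of the same length before annotated genes, 7.09% held CACGTG, 8.71% held CACGTT and 13.1% held CACATG. Of the 13 JAZ genes, CACGTG was found in 5, CACGTT in 5 and CACATG in 2. These counts describe letters in a short window and say nothing of binding.

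TPL (AT1G15750, chromosome 1, 5414817 to 5421033, minus strand) encodes the corepressor that NINJA recruits. In Set1 it had 62.0 and 78.7 CPM in JA libraries, against 78.6 and 142.9 CPM in ctrl libraries. In Set2 it had 113.8, 125.7 and 136.6 CPM in JA libraries, against 168.3, 164.9 and 183.4 CPM in ctrl libraries. The groups met in Set1, where Set1_2hJA replicate 2 and Set1_ctrl replicate 1 were nearly equal, and were apart in Set2. Within each of the 5 pairs of libraries with the same number TPL was lower after JA, by 0.34 to 0.86 on the log2 scale. That count rests on the numbers of the titles: by the numbers in the file names Set1_2hJA replicate 2 would be set against the nearly equal Set1_ctrl replicate 1, where TPL was not lower, and the fit with a replicate block and the pair counts of the other genes rest on the title numbers too.

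In the combined fit the log2 fold change of TPL was -0.54 (SE 0.15, 95% confidence interval -0.86 to -0.21, edgeR adjusted p = 0.0308). It was -0.46 in Set2 (SE 0.11, edgeR adjusted p = 0.0474) and -0.67 in Set1 (SE 0.30, edgeR adjusted p = 0.274), where a fit with the replicate number as a block gave -0.63 with an edgeR adjusted p of 0.0232. The combined call was lost, with edgeR adjusted p from 0.0528 to 0.105, without either Set1_2hJA library, Set1_ctrl replicate 2, Set2_ctrl replicate 2 or 3, or Set2_2hJA replicate 1 or 2, and it was lost on library totals without TMM scaling (0.156) and with limma on log2(TPM + 1) (0.340). The call in Set2 was lost without each of its 6 libraries in turn (edgeR adjusted p from 0.0767 to 0.158), and without the filter on low counts (0.114). The Set1 value without Set1_ctrl replicate 1 was -1.03 (edgeR adjusted p = 0.0157). Such a fit leaves 1 library in an arm of Set1, so its spread comes from the other 2 libraries and the lone one is assumed to vary like them.

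TPR2 (AT3G16830, chromosome 3, 5731519 to 5737854, plus strand), a relative of TPL, had 29.8 and 37.3 CPM in Set1_2hJA, against 34.6 and 62.3 CPM in Set1_ctrl. In Set2 it had 54.8, 58.4 and 68.0 CPM in JA libraries, against 82.3, 73.2 and 74.8 CPM in ctrl libraries. The ranges were apart in Set2 and met in Set1, and TPR2 was lower after JA in 5 of 5 pairs by title number, although Set1_2hJA replicate 2 was above Set1_ctrl replicate 1, its partner by file name. Its combined log2 fold change of -0.42 (SE 0.15, 95% confidence interval -0.74 to -0.10) missed the threshold (edgeR adjusted p = 0.0838). It passed with the replicate block (-0.40, edgeR adjusted p = 0.0292), with DESeq2 (adjusted p = 0.0411) and without Set1_ctrl replicate 1 (edgeR adjusted p = 0.0217).

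TPR4 (AT3G15880, chromosome 3, 5364081 to 5372293, minus strand) was close to the same pattern at a smaller size. It had 50.4 and 69.5 CPM in Set1_2hJA, against 58.9 and 91.7 CPM in Set1_ctrl. In Set2 it had 76.7, 88.3 and 91.7 CPM in JA libraries, against 107.7, 95.7 and 92.7 CPM in ctrl libraries. It was lower after JA in 5 of 5 pairs by title number, although here too Set1_2hJA replicate 2 was above Set1_ctrl replicate 1. The closest pair differed by 0.01 on the log2 scale, and the combined log2 fold change was -0.26 (SE 0.13, 95% confidence interval -0.54 to 0.03, edgeR adjusted p = 0.256).

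TPR1 (AT1G80490, chromosome 1, 30260818 to 30267125, minus strand), the closest relative of TPL, had 41.1 and 52.1 CPM in Set1_2hJA, against 40.5 and 66.4 CPM in Set1_ctrl. Set2 gave 59.1, 71.6 and 69.8 CPM in JA libraries, against 71.3, 66.3 and 76.9 CPM in ctrl libraries. The groups overlapped in both sets, and the combined log2 fold change was -0.14 (SE 0.13, 95% confidence interval -0.43 to 0.15, edgeR adjusted p = 0.567).

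TPR3 (AT5G27030, chromosome 5, 9508718 to 9515565, minus strand) was the family member with the lowest level. It had 18.4 and 19.5 CPM in Set1_2hJA, against 17.7 and 35.1 CPM in Set1_ctrl, and in Set2 24.9, 28.8 and 28.6 CPM in JA libraries, against 29.6, 27.0 and 27.1 CPM in ctrl libraries. The groups overlapped in both sets, and the combined log2 fold change was -0.21 (SE 0.16, 95% confidence interval -0.57 to 0.15, edgeR adjusted p = 0.470). Without Set1_ctrl replicate 1 the Set1 values of TPR2 (-0.90), TPR3 (-0.90) and MED25 (-0.89) passed the threshold, with edgeR adjusted p of 0.0271, 0.0183 and 0.0253, in a fit whose spread comes from the 2 JA libraries alone.

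**Figure D2:**
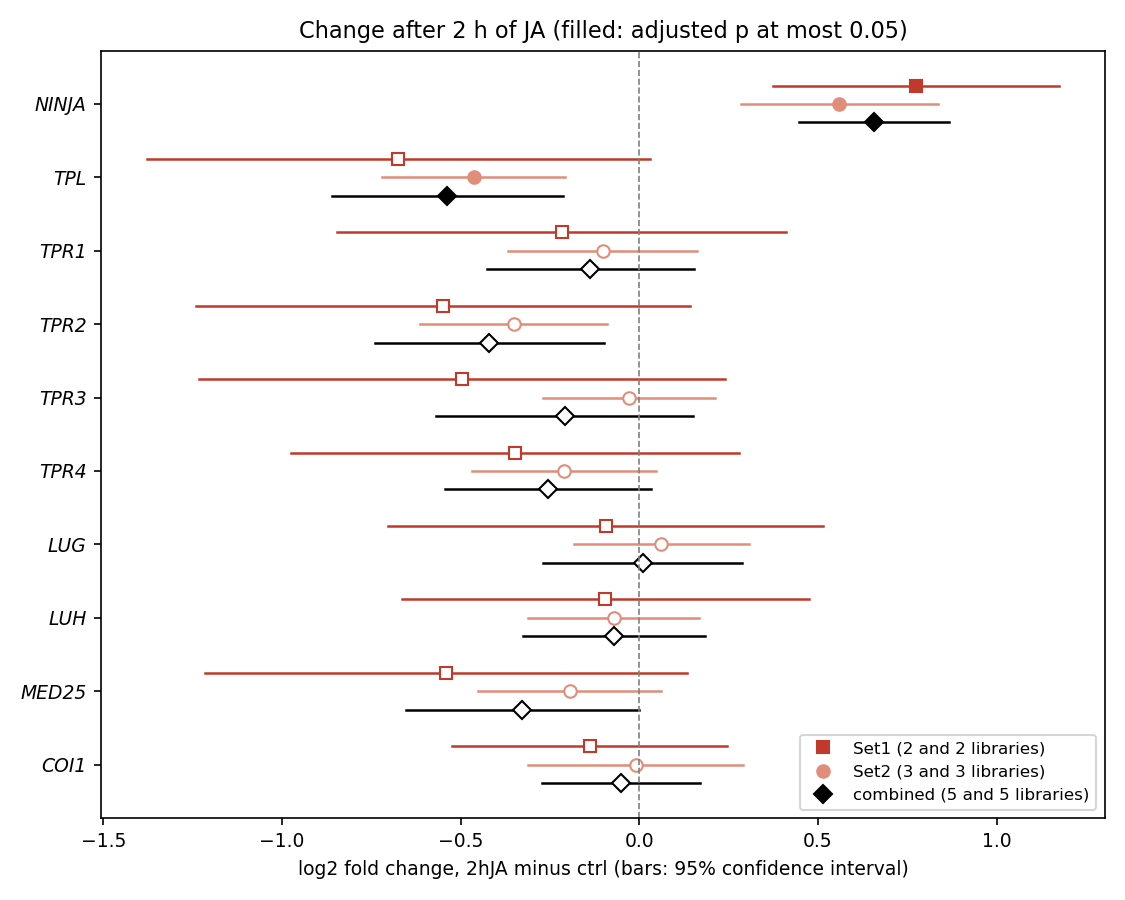
Log2 fold change of each gene, JA minus ctrl, in Set1, Set2 and the combined fit, with bars for 95% confidence intervals and filled symbols for an adjusted p of at most 0.05. NINJA lies right of 0 in all 3 fits, TPL lies left of 0 with filled symbols in Set2 and the combined fit, and for every gene the Set1 interval is the widest of the 3.

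The shares of TPL and TPR1 in the family lay apart between JA and ctrl in the same direction in both experiments, when each gene was given as its share of the summed TPM of TPL and TPR1 to TPR4, a value per transcript length that does not depend on plastid or ribosomal reads. TPL made up 30.4% and 30.4% of the family in Set1_2hJA, against 33.8% and 35.7% in Set1_ctrl. In Set2 it made up 34.3%, 33.5% and 34.5% in JA libraries, against 36.4%, 38.3% and 40.1% in ctrl libraries. TPR1 made up 20.7% and 20.4% in Set1_2hJA, against 17.8% and 16.8% in Set1_ctrl, and 18.1%, 19.3% and 17.6% in Set2_2hJA, against 15.5%, 15.6% and 16.9% in Set2_ctrl. Thus the share of TPL was lower by 4.35 points in Set1 and 4.19 points in Set2 in the group means, that of TPR1 was higher by 3.26 and 2.34 points, and neither had overlapping ranges in either set. A share also depends on the other genes of the family. The level of TPR1 itself was not called higher, with a combined log2 fold change of -0.14 and CPM ranges that overlapped in both sets. Ranges of the share were apart for 3 of 5 genes in each set (TPR2 also in Set1, TPR3 also in Set2), and over all genes the CPM ranges, a different measure, were apart for 49.4% in Set1 and 23.0% in Set2. These shares are descriptions with no test.

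**Figure D3:**
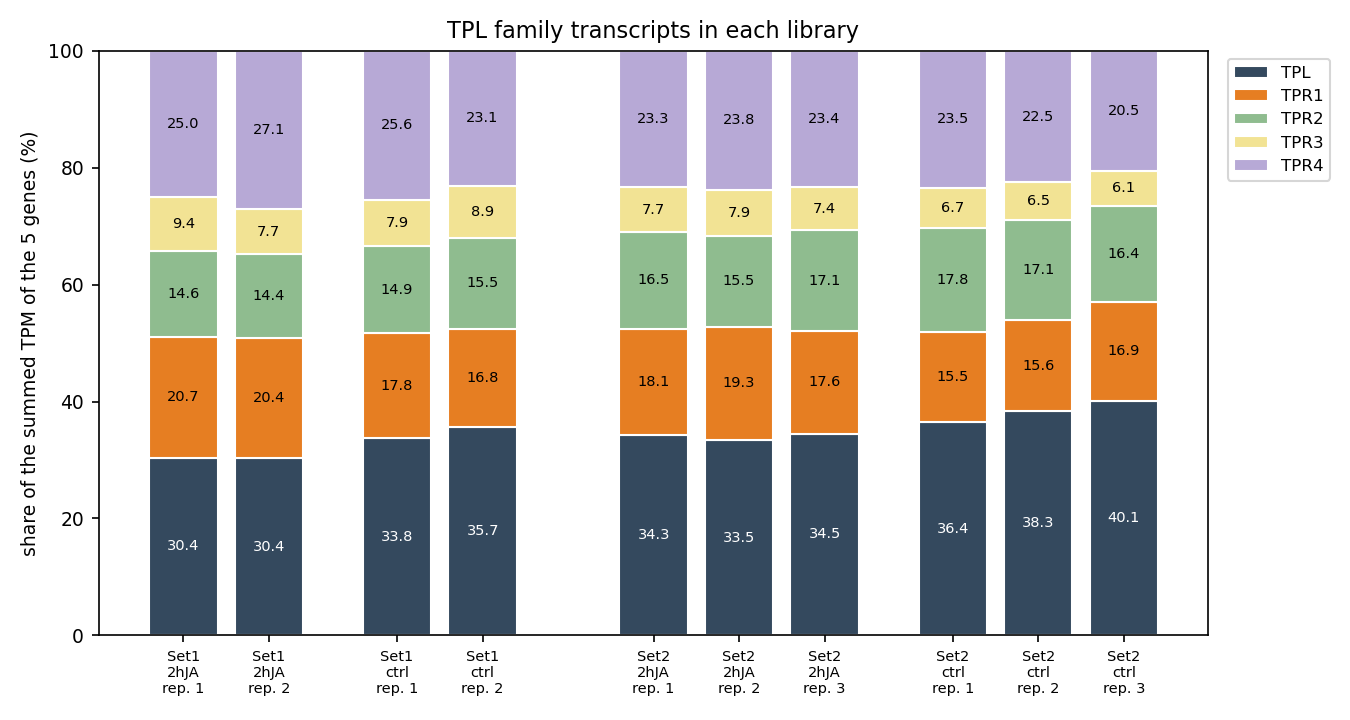
Share of TPL and TPR1 to TPR4 in the summed TPM of the 5 genes, as a stacked bar for each library, with JA libraries left of ctrl libraries in each set. The TPL segment is between 30.4% and 34.5% in JA libraries and between 33.8% and 40.1% in ctrl libraries, and within a set every JA bar has the smaller TPL and the larger TPR1 segment.

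The other 3 relatives showed no such difference in both sets. The TPR3 share lay between 7.37% and 7.91% in Set2_2hJA, above the 6.10% to 6.74% of Set2_ctrl, but in Set1 the ranges overlapped. The TPR2 share was lower without overlap in Set1 only, and the TPR4 shares overlapped in both sets. As a sum, the family had 49.6 and 86.9 TPM in Set1_2hJA, against 47.1 and 126.1 TPM in Set1_ctrl, and 142.6 to 155.8 TPM in Set2_2hJA, against 172.0 to 191.6 TPM in Set2_ctrl.

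LUG (AT4G32551, chromosome 4, 15707425 to 15713662, plus strand) and LUH (AT2G32700, chromosome 2, 13866721 to 13872246, plus strand), the Groucho-type corepressors, did not pass the test in either set or in the combined fit. LUG had 51.9 and 63.2 CPM in Set1_2hJA, against 46.1 and 75.0 CPM in Set1_ctrl, and 59.7, 64.7 and 71.9 CPM in Set2_2hJA, against 64.9, 59.6 and 63.0 CPM in Set2_ctrl. LUH had 71.3 and 88.1 CPM in Set1_2hJA, against 66.8 and 101.0 CPM in Set1_ctrl, and 90.6, 101.2 and 107.4 CPM in Set2_2hJA, against 100.6, 106.2 and 106.7 CPM in Set2_ctrl. The JA and ctrl ranges overlapped for both genes in both sets. The combined log2 fold change was 0.01 for LUG (95% confidence interval -0.27 to 0.29, edgeR adjusted p = 0.979) and -0.07 for LUH (-0.32 to 0.18, edgeR adjusted p = 0.758). The intervals leave room for a change between 0.830-fold and 1.22-fold in LUG and between 0.799-fold and 1.14-fold in LUH. LUG made up between 34.4% and 37.3% of the summed TPM of the pair in JA libraries and between 31.4% and 37.8% in ctrl libraries.

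MED25 (AT1G25540, chromosome 1, 8969065 to 8974815, minus strand), the Mediator subunit that MYC2 binds, had 19.1 and 23.1 CPM in Set1_2hJA, against 21.8 and 38.8 CPM in Set1_ctrl. Set2 gave 25.5, 24.0 and 25.8 CPM in JA libraries, against 31.3, 29.3 and 25.3 CPM in ctrl libraries. The groups overlapped in both sets, and MED25 was lower after JA in 4 of 5 pairs. Its combined log2 fold change of -0.33 (SE 0.15, 95% confidence interval -0.65 to -0.001) did not pass (edgeR adjusted p = 0.191), and the Set1 value was -0.54 (edgeR adjusted p = 0.367) and the Set2 value -0.19 (edgeR adjusted p = 0.417).

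COI1 (AT2G39940, chromosome 2, 16672493 to 16675864, minus strand), the receptor subunit, had 27.5 and 25.4 CPM in Set1_2hJA, against 27.8 and 29.6 CPM in Set1_ctrl. Set2 gave 27.6, 32.7 and 38.6 CPM in JA libraries, against 33.9, 30.3 and 34.8 CPM in ctrl libraries. The ranges were apart by a narrow margin in Set1 and overlapped in Set2. The combined log2 fold change was -0.05 (SE 0.10, 95% confidence interval -0.27 to 0.17, edgeR adjusted p = 0.803), which leaves room for a change between 0.828-fold and 1.13-fold.

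Calls among the members were few, as they were among all genes. In Set1 1 of 10 members was called, against 6.57% of the 20098 genes tested. In Set2 2 of 10 were called, against 5.74% of 19259, and in the combined fit, which uses the libraries of both sets, 2 of 10, against 13.6% of 20213. At an adjusted p of at most 0.05 and 2-fold, 0 members and 4.03% of all genes passed in the combined fit. There, 4 of 10 members had an unadjusted p under 0.05 (NINJA, TPL, TPR2 and MED25), beside 5251 of the 20213 genes tested. Ranges of CPM were apart for 2 of 10 members in Set1 and 4 of 10 in Set2, against 49.4% and 23.0% of the genes tested. The median log2 fold change of the members was -0.17 in the combined fit, beside 0.01 over all genes tested, and 8 of 10 members had a negative value, beside 47.9% of all genes.

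A difference in response between the 2 experiments was not shown for any member. The interaction test called 0 of 20213 genes in edgeR, with 1438 at an unadjusted p under 0.05, and DESeq2 called 59 higher and 89 lower. The smallest unadjusted p of a member was 0.185, for TPR3 (Set2 minus Set1 0.45, 95% confidence interval -0.25 to 1.15), and the intervals of all 10 members reached past a difference of 0.5 on the log2 scale in 1 direction or both. The levels themselves differed between the experiments, which cannot be told apart from their growth, library preparation or depth. In JA libraries the mean CPM of TPL was 1.78 times as high in Set2 as in Set1, and that of NINJA 0.767 times as high, without overlap of the ranges.

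The order of the members by TPM, which can be compared between genes within a library, changed at the top. NINJA was first in 4 of 5 JA libraries, the exception being Set2_2hJA replicate 3, where it was in place 3. In ctrl libraries TPL was first in 4 of 5, the exception being Set1_ctrl replicate 1, where NINJA was first and TPL in place 3. Geometric means over the 5 JA libraries ran from NINJA (55.8 TPM) through LUH (43.2), TPL (34.8), TPR4 (26.2), LUG (24.2), TPR1 (20.5), TPR2 (16.7), COI1 (16.6) and MED25 (10.2) to TPR3 (8.54 TPM). Over the 5 ctrl libraries they ran from TPL (47.7 TPM) through LUH (43.3), NINJA (34.0), TPR4 (29.8), LUG (22.8), TPR1 (21.4), TPR2 (21.1), COI1 (16.5) and MED25 (12.1) to TPR3 (9.27 TPM).

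Several neighbours in these orders did not differ beyond their spread over the 5 libraries, which come from both sets. In JA libraries the order held in 5 of 5 libraries for LUH over TPL, TPL over TPR4, TPR1 over TPR2 and COI1 over MED25. The mean log2 ratio of NINJA over LUH was 0.37 ± 0.46, that of TPR4 over LUG 0.11 ± 0.20 and that of TPR2 over COI1 0.01 ± 0.34 (SD, n = 5 libraries). Part of that spread lay between the sets. TPR4 was below LUG and TPR2 below COI1 in each Set1_2hJA library, and each was above in every Set2_2hJA library. The TPM ratio of NINJA to LUH was 1.65 to 1.86 in Set1_2hJA, against 0.837 to 1.27 in Set2_2hJA. In ctrl libraries the order held in 5 of 5 only for TPR4 over LUG and MED25 over TPR3, and the mean log2 ratio of TPR1 over TPR2 was 0.02 ± 0.19 (SD, n = 5 libraries). The ratio of NINJA to TPL in TPM was 2.51 to 2.91 in Set1_2hJA, against 0.804 to 1.301 in Set1_ctrl, and 0.887 to 1.35 in Set2_2hJA, against 0.525 to 0.631 in Set2_ctrl. The ratio of TPL to TPR1 was 1.47 to 1.49 in Set1_2hJA, against 1.90 to 2.13 in Set1_ctrl, and 1.73 to 1.96 in Set2_2hJA, against 2.35 to 2.46 in Set2_ctrl. Ratios of NINJA to LUH and of TPL to LUH were also apart in both sets. Those of NINJA to COI1 and of TPR2 to TPR1 were apart in Set1 only. Those of LUG to LUH and of MED25 to COI1 overlapped in both sets. Every ratio that was apart in both sets held NINJA or TPL, the called members, and so partly restates their changes. How often ratios of other gene pairs were apart was not computed. Over all genes the CPM ranges, a different measure, were apart for 49.4% in Set1 and 23.0% in Set2. Effective lengths, which would move with the mix of transcript forms, overlapped between JA and ctrl for all 10 genes in both sets. TPR2 and COI1 have 1 annotated transcript each, so their effective lengths could not show such a move.

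Among the JAZ partners of these proteins, 11 of 13 genes were called with a larger fold change than any member. The 13 JAZ genes, which encode the repressors that NINJA and TPL serve, stood at a combined median of 3.47 on the log2 scale, with 11 called higher, all at 2-fold or more, and 0 lower. JAZ9 (4.74), JAZ2 (2.97), JAZ5 (5.48) and JAZ6 (3.47) had the smallest adjusted p, the last pair being tied (edgeR, from 3.1e-07 to 3.8e-06), and JAZ4 (0.77, SE 0.44, edgeR adjusted p = 0.2998) and JAZ11 (0.06, edgeR adjusted p = 0.793) were not called. Of the 4 MYC genes, MYC2 (3.60, edgeR adjusted p = 2e-05) and MYC3 (0.40, edgeR adjusted p = 0.022) were higher in the combined fit, and MYC4 and MYC5 did not pass. MYC3 was called in neither set alone (edgeR adjusted p = 0.306 in Set1 and 0.133 in Set2).

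Set against their corepressors and receptor, the JAZ transcripts stood in higher ratios in JA than in ctrl libraries. The summed TPM of the 13 JAZ genes was 23.2 and 30.0 times that of NINJA in Set1_2hJA, against 4.74 and 4.32 times in Set1_ctrl. In Set2 it was 25.0 to 36.3 times that of NINJA in JA libraries, against 4.87 to 6.50 times in ctrl libraries. Relative to the summed TPL family it was 20.5 and 22.8 times in Set1_2hJA, against 2.09 and 1.24 times in Set1_ctrl, and 7.67 to 16.9 times in Set2_2hJA, against 1.04 to 1.24 times in Set2_ctrl. Relative to COI1 it was 96.7 and 148.2 times in Set1_2hJA, against 11.1 and 10.7 times in Set1_ctrl, and 50.1 to 128.6 times in Set2_2hJA, against 8.72 to 10.9 times in Set2_ctrl. On the activating side, MYC2, MYC3 and MYC4 together had 13.2 and 16.3 times the TPM of MED25 in Set1_2hJA, against 3.60 and 2.35 times in Set1_ctrl, and 8.01 to 12.2 times in Set2_2hJA, against 3.12 to 4.16 times in Set2_ctrl. No range of JA met that of ctrl in these ratios, which describe transcripts and not proteins. The called JAZ genes and MYC2 changed more than any member, so the separation follows mainly from them. It says little about NINJA, the TPL family, COI1 or MED25.

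**Figure D4:**
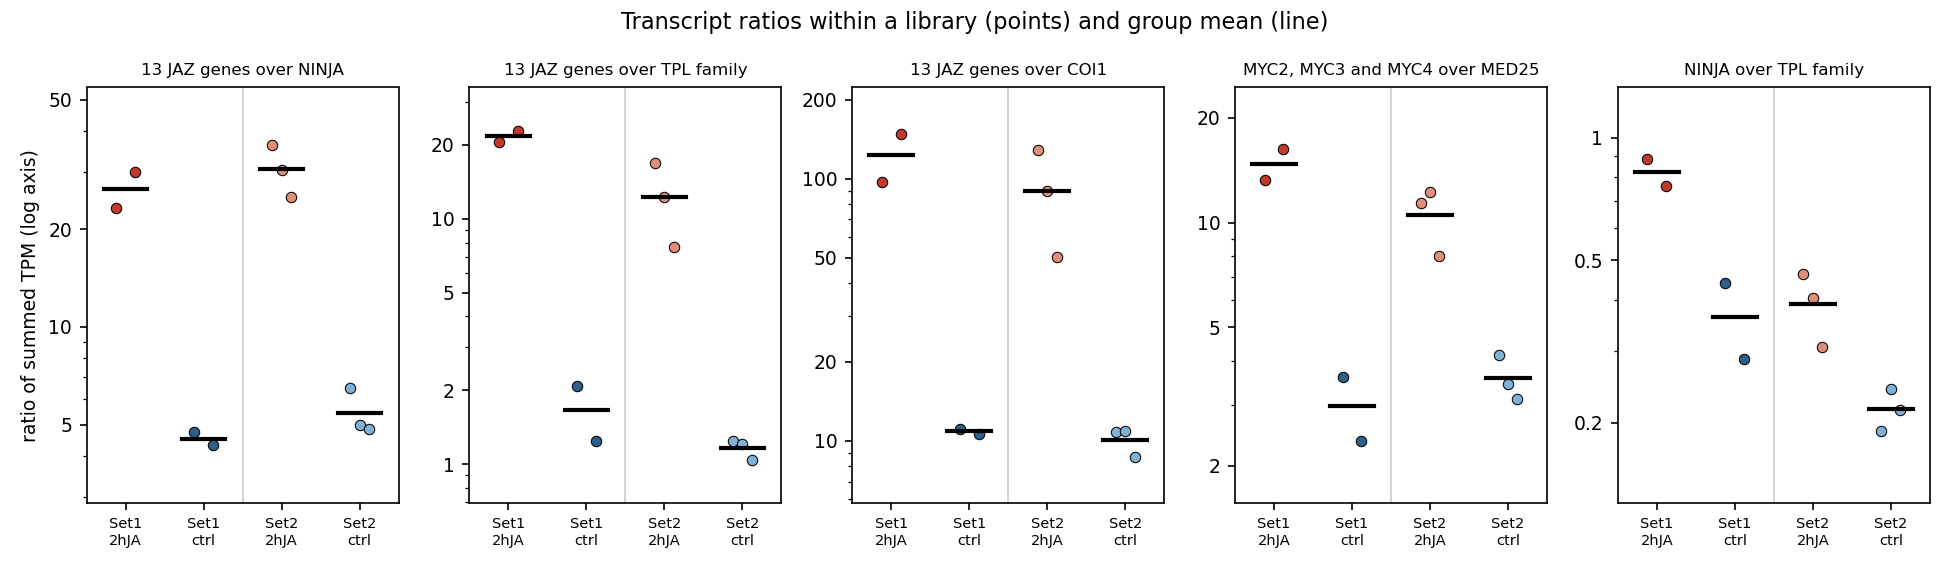
Ratios of summed TPM within each library on log axes, with JA left of ctrl in each set, points for libraries and lines for group means. The JAZ to NINJA ratio is between 23.2 and 36.3 in the JA libraries and between 4.32 and 6.50 in the ctrl libraries, and NINJA over the TPL family is higher in JA than in ctrl within each set.

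NINJA over the TPL family differed in the same direction by a smaller factor. It was 0.884 and 0.761 in Set1_2hJA, against 0.440 and 0.287 in Set1_ctrl, and 0.306 to 0.464 in Set2_2hJA, against 0.191 to 0.242 in Set2_ctrl. The JA ranges were above the ctrl ranges in each set, although the Set2_2hJA range met that of Set1_ctrl.

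Among the genes closest to NINJA in sequence and role, 2 of the 4 AFP genes were called higher in the combined fit. AFP proteins are relatives of NINJA that bind the abscisic acid factor ABI5 and also recruit TPL. AFP3 had 48.6 and 49.9 CPM in Set1_2hJA, against 31.9 and 18.2 CPM in Set1_ctrl, and 22.4, 26.6 and 19.6 CPM in Set2_2hJA, against 14.0, 13.7 and 8.94 CPM in Set2_ctrl. Its combined log2 fold change was 0.93 (SE 0.17, edgeR adjusted p = 0.00257), that of AFP2 was 0.68 (SE 0.15, edgeR adjusted p = 0.0098), and that of AFP1, 0.70, had a wider error (SE 0.23, edgeR adjusted p = 0.0689). Within the sets, AFP3 was called in Set2 (edgeR adjusted p = 0.0257) but not in Set1 (0.0915). AFP2 was called in neither (0.246 in Set1 and 0.0756 in Set2). AFP4 stood at 0.01 with at most 4.84 CPM. The list median was 0.69.

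Of 3 other repressors that NINJA can bridge to TPL, the TIFY-family gene TIFY8 fell (log2 fold change -0.47, SE 0.10, edgeR adjusted p = 0.0060), while PPD1 (-0.12) and PPD2 (-0.14), which limit leaf growth, were not called. TIFY8 had 38.5 and 38.0 CPM in Set1_2hJA, against 53.1 and 60.3 CPM in Set1_ctrl, and 27.7 to 29.2 CPM in Set2_2hJA, against 31.6 to 40.6 CPM in Set2_ctrl. It was thus lower without overlap in both sets, although called in neither set alone (edgeR adjusted p = 0.0982 in Set1 and 0.0983 in Set2). The 4 SEUSS-family genes, adaptors of LUG and LUH, had 0 calls and a median of -0.21, and HAC1, HDA6 and HDA19, the histone acetyltransferase and deacetylases of the pathway, had 0 of 3 and a median of 0.03.

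Of 16 other Mediator subunits 1 was called lower and 0 higher, with a median of -0.15. MED5B (-0.47, edgeR adjusted p = 0.0369) was the one called, and MED6 (-0.23, edgeR adjusted p = 0.134) and MED32 (0.33, edgeR adjusted p = 0.167) came next. MED5B was called in neither set alone (edgeR adjusted p = 0.146 in Set1 and 0.226 in Set2). MED25, at -0.33, lay within the range of these subunits, from -0.47 to 0.33. Around COI1, the 4 core subunits of its ubiquitin ligase (ASK1, ASK2, CUL1 and RBX1) had 0 calls and a median of 0.10. Of 6 auxin receptors of the same F-box family, AFB1 was lower in the combined fit (-0.50, SE 0.14, edgeR adjusted p = 0.0326). It was called in neither set alone (edgeR adjusted p = 0.0647 in Set1 and 0.302 in Set2). TIR1 and AFB2 to AFB5 did not pass, and the list median was -0.13.

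**Figure D5:**
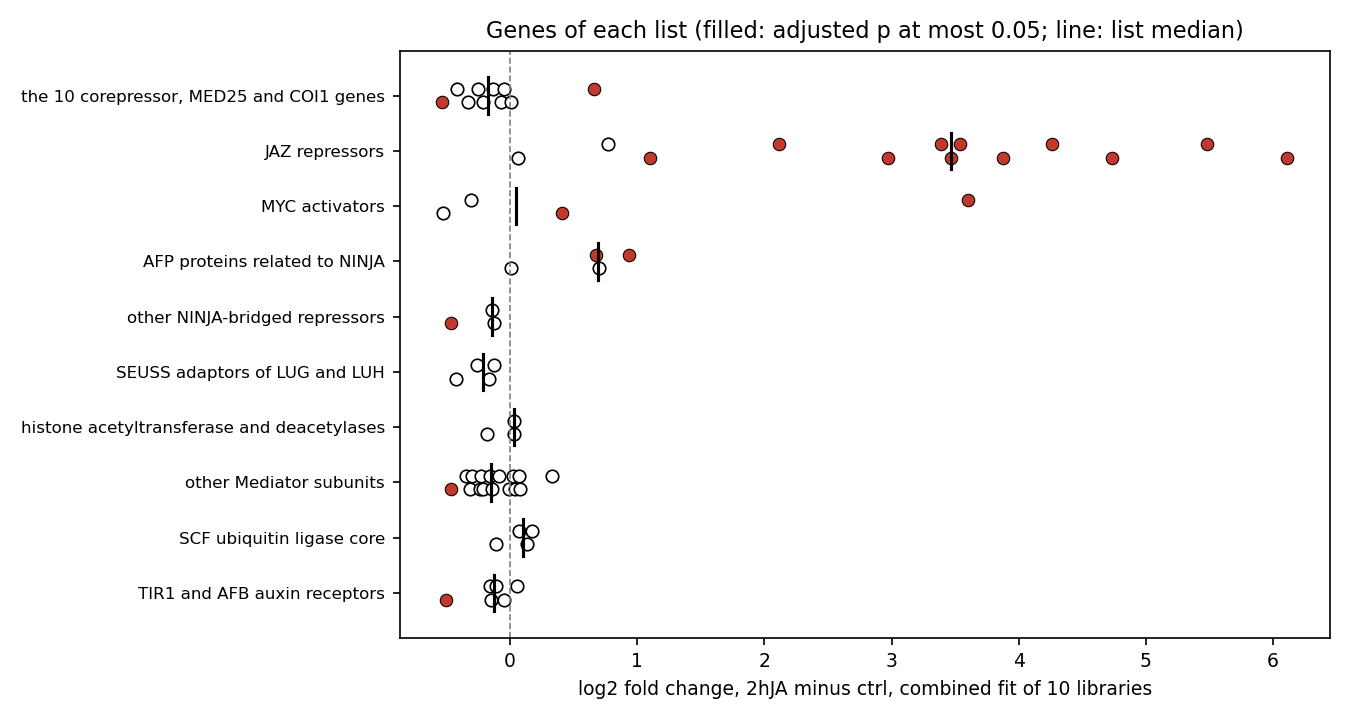
Combined log2 fold change, JA minus ctrl, of every gene in the list of the 10 members and in 9 lists of partner and related genes, with filled points for an adjusted p of at most 0.05 and lines for list medians. The JAZ median lies at 3.47, the AFP median at 0.69, and the medians of the members and of the other lists lie between -0.21 and 0.10.

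The genes whose level most resembled that of the 3 members with the smallest adjusted p were found by the Pearson correlation of log2(CPM + 1), centred on each set, over the 10 libraries and 20213 genes. All points share the treatment, the libraries and their depth, so the values are descriptions. For NINJA they were AT4G02360 (0.987), AT5G15640 (0.983) and BGLU6 (0.982), whose combined log2 fold changes were 2.91, 0.51 and 1.79. For TPL they were BRI1, the brassinosteroid receptor (0.978), SCAR4, a subunit of the SCAR/WAVE complex (0.978), and TPR2 (0.972). Their combined log2 fold changes were -0.50, -0.56 and -0.42, and only BRI1 was called (edgeR adjusted p = 0.0284). For TPR2 they were the homeobox gene ANL2, EICBP.B and SKdZeta, each at 0.984. Their combined log2 fold changes were -0.43, -0.32 and -0.14, and none was called (edgeR adjusted p = 0.0521, 0.149 and 0.341).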

How the data were processed

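Reads were aligned by the authors to TAIR10 with STAR 2.7.5a and quantified with RSEM 1.3.3. The deposited tables hold RSEM expected counts, estimated counts that divide shared reads and need not be whole, and TPM, which the authors scaled to effective length and to an equal total per library. The authors' deposited edgeR tables (fold changes and p-values) were not used. The effective length, a score in bases deposited by the authors, served to check the mix of transcripts.

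Expected counts were rounded and tested in R 4.3.3 with edgeR 4.0.16 (filterByExpr by group, TMM, quasi-likelihood F test, Benjamini-Hochberg adjustment over all genes tested), for each set, for both with the set as a covariate, and for the set by treatment interaction. Alternatives were DESeq2 1.42.0, no filter, library totals only, limma 3.58.1 on log2(TPM + 1), removal of 289 organelle and rRNA genes, a replicate block and leaving out each library. The functions were run on simulated counts, with pass limits set for edgeR only. Those counts had less spread than these data and no difference between sets or replicates. The block took libraries with the same replicate number as pairs, which the sample titles do not state. Deviations of same-numbered libraries from their group means correlated at 0.467 in Set1 and 0.246, 0.281 and 0.275 in Set2. With 2 libraries per group the deviations in Set1 mirror each other, and the opposite numbering gives -0.467. The Set1 value therefore cannot tell a pairing from a shared trait such as the plastid content of the replicate 1 libraries.

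Coordinates and sequences came from RefSeq TAIR10.1, in which 99.3% of 21633 genes with 1 transcript had the length of the deposited tables. The 10 members, the lists and the rule for other named genes (every called gene of a list of up to 6, otherwise the 3 with the smallest adjusted p) were chosen with earlier results of these data known. The summed partner ratios were added after the values were seen. Member counts ranged from 178 (MED25) to 1605 (TPL) per library.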

Additional observations from a re-analysis of the deposited data

How the results depend on the processing

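Among the members, NINJA kept its combined call under each of the 6 alternatives (log2 fold change 0.65 to 0.70) and without any 1 library (0.60 to 0.72). Members called higher were 0 in Set1 with library totals only and with limma on log2(TPM + 1), and 0 in Set2 without the filter and with limma. Members called lower were 0 in Set2 without the filter, and in the combined fit 2 with DESeq2, 0 with library totals only and 0 with limma. The median of all genes in Set1 was -0.02 on the log2 scale in the main analysis, 0.10 on library totals and 0.15 with limma, so values there are read relative to it. Library totals called 512 genes higher and 207 lower in Set1, and 1162 higher and 760 lower in the combined fit. Limma called 517 higher and 169 lower in Set1, and 904 higher and 512 lower in the combined fit. With the replicate block, which uses the pairing of libraries by number, 1438 genes were higher and 1344 lower in Set1 (727 and 594 without it) and 759 were lower in Set2 (494 without it), members called lower were 1 in Set1 (TPL) and 2 in the combined fit (TPL and TPR2), and no other call of a member changed. For the interaction, 59 genes were called higher and 89 lower with DESeq2, 38 and 41 without the filter, 2 and 4 without organelle and rRNA genes, 29 and 32 with the replicate block, and 1 lower with limma, against 0 and 0.

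Without each library in turn, Set1 gave 417 to 1103 genes higher and 255 to 887 lower, Set2 285 to 516 higher and 139 to 380 lower (612 and 494 with all), the combined fit 1003 to 1474 higher and 894 to 1396 lower (1401 and 1348 with all), and the interaction 0 to 5 higher and 0 to 4 lower. Members called higher were 0 to 0 in Set1 and 0 to 1 in Set2. Members called lower were 0 to 4 in Set1, 0 to 0 in Set2 and 0 to 2 in the combined fit, and 0 to 1 passed 2-fold in Set1 (TPL, without Set1_ctrl replicate 1).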
